A study of Homo sapiens with 12 samples.

Results

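The TKOv3 library is a pooled set of guide RNAs for Cas9 knockout screens, and 96 LacZ, 24 luciferase and 22 EGFP guides among its 71090 target no human gene. These non-targeting guides were chosen by name, as every guide against one of the 3 reporters, and make up 0.2% of the library. LacZ is the bacterial beta-galactosidase gene, luciferase is a firefly enzyme that emits light, and EGFP is a fluorescent protein derived from a jellyfish. Cas9 loaded with a guide cuts DNA that matches the guide, and the repair of a cut inside a gene often destroys that gene. A guide against a reporter that the cells do not carry has nothing to cut, so a cell holding it pays neither for a lost gene nor for the cut itself. The methods describe cells that express H2B-GFP for live imaging and do not say that the screened cells carried it, so a GFP target for the EGFP guides cannot be told from the methods. What such guides do over passages is a measure of unselected growth and of sampling at each passage, and they are the usual reference against which targeting guides are read.

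The screens were run in HCC1806, a triple-negative breast cancer line, and MIA PaCa-2, a pancreatic cancer line, to find genes whose loss alters growth under INX-315, an inhibitor of CDK2, or palbociclib, an inhibitor of CDK4 and CDK6. HCC1806 gave 1 start library, 2 DMSO libraries (DMSO 1 and DMSO 2) and 2 libraries grown in 500 nM INX-315 (INX-315 1 and INX-315 2) in one screen, and 1 start, 1 DMSO and 1 palbociclib library in another. MIA PaCa-2 gave 1 start, 1 DMSO, 1 INX-315 (500 nM) and 1 palbociclib library, so both palbociclib comparisons and all values of this line have no replicates. Start cells were taken at passage 0 (HCC1806) or passage 1 (MIA PaCa-2). The labels put the 9 later libraries at passage 8 where the methods give up to 5 passages, and describe a pool selected at up to 200-fold coverage of the library. The methods give palbociclib as 500 nM in HCC1806 and 250 nM in MIA PaCa-2, where the labels write the 250 of both lines with the unit mM. All libraries carry the whole TKOv3 pool, so the non-targeting guides grew in competition with every knockout.

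The name of each guide gives the first and last base of its 20-base target within the reporter and its strand. A guide is called here by its reporter, first base and strand, so that LacZ 1588- starts at base 1588 of LacZ on the minus strand. These are positions in the reporters and not in the human genome. The LacZ guides lay between bases 23 and 3038 (44 on the plus and 52 on the minus strand), the luciferase guides between 45 and 1632 (13 and 11) and the EGFP guides between 26 and 690 (9 and 13). The targets are partly shared. In 42 same-strand pairs, made up of 53 guides, the targets overlapped by at least 10 bases, so the guides are not independent sequences.

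Library totals ran from 24946956 to 58875726 counts. DMSO 1 stood apart from the other 8 libraries after the start, and 29 of the non-targeting guides (20.4%) held under 30 counts there, where 16.7% of all guides did, against 1 to 5 non-targeting guides in the others. Results that depend on DMSO 1 are therefore given with and without it. The counts come from PCR reads without molecular identifiers, and intervals on counts cover counting error only.

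At the start the non-targeting guides differed widely in level, but each did so alike in every start library. They held 0.154% of all counts in the start library of the HCC1806 palbociclib screen (95% Wilson interval 0.153 to 0.155), 0.150% in that of the HCC1806 INX-315 screen (0.148 to 0.151) and 0.157% in that of MIA PaCa-2 (0.156 to 0.158). Their mean level was 10.5 to 11.1 counts per 1000000 counts (CPM), below the 14.1 CPM of the mean targeting guide. Single guides had a mean start level of 1.03 to 34.9 CPM. LacZ guides were the rarest, with a median start level of 8.22 CPM against 11.3 for EGFP and 15.6 for luciferase. Each guide kept its place from one start library to the next. Across the non-targeting guides, log2 CPM correlated at 0.972 between the start libraries of HCC1806 (Pearson's r). It correlated at 0.946 and 0.940 between each of these and MIA PaCa-2. These values are a description over guides of the same TKOv3 library. The log2 ratio between start libraries had an SD of 0.23 to 0.33, and no guide differed by more than 1 log2 unit between any of them.

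After the passages the non-targeting guides held a larger share of every library. The share was 0.225% in DMSO and 0.217% with palbociclib in the HCC1806 palbociclib screen. In the HCC1806 INX-315 screen DMSO 1 and DMSO 2 held 0.220% and 0.239%, and the INX-315 libraries held 0.248% and 0.243%. The MIA PaCa-2 libraries held 0.223% in DMSO, 0.231% with INX-315 and 0.215% with palbociclib. All 9 values lay above all 3 start values, and each was 1.37 to 1.65 times its own start. The mean level of guides against olfactory receptor genes, which are silent in most tissues and whose cut costs only the cut, rose less, to 1.12 to 1.20 times its start (1300 guides, 339 genes). The mean of all targeting guides stayed at 0.999 times its start, which the scaling to CPM fixes nearly by itself.

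The median guide moved in the same direction, except in DMSO 1. The change from start was taken as the difference of log2(CPM + 0.5), which understates the change of low guides. In the HCC1806 palbociclib screen the median of the non-targeting guides was 0.38 in DMSO (95% binomial interval of the median 0.27 to 0.48) and 0.39 with palbociclib (0.28 to 0.49). In the INX-315 screen DMSO 2 gave 0.45 (0.34 to 0.65) and the INX-315 libraries gave 0.49 (0.40 to 0.66) and 0.51 (0.39 to 0.65). For MIA PaCa-2 it was 0.44 in DMSO (0.26 to 0.57), 0.38 with INX-315 (0.10 to 0.57) and 0.34 with palbociclib (0.23 to 0.48). In DMSO 1 it was −0.38 (−0.82 to 0.02) on total counts, but 0.49 when the library was scaled on the median of all guides and 0.17 when it was scaled on the olfactory receptor guides. A median below 0 thus stood beside a risen total share in DMSO 1, where few guides held much of the counts. The 10 largest non-targeting guides held 33.2% of all non-targeting counts in DMSO 1, against 18.8 to 21.5% in the other libraries after the start and 16.6 to 17.6% at the start.

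Set against other guides of the same library, which no scaling changes, the non-targeting median was higher in 9 of 9 libraries. It exceeded the median of the olfactory receptor guides by 0.17 in DMSO 1 and by 0.24 to 0.42 in the others. It exceeded the median of all targeting guides by 0.41 to 0.61, and that of 177 guides against 49 commonly essential genes by 2.32 to 2.56 in MIA PaCa-2 and 3.66 to 4.08 in HCC1806. These 9 values come from 3 start libraries and are given as a description with no test. Non-targeting guides also started at a lower level than olfactory receptor guides (a mean of 10.5 to 11.1 against 15.0 to 15.6 CPM), and the part of that gap in the difference was not tested. More guides rose than fell in 8 of 9 libraries. Of the non-targeting guides, 104 lay above their start in DMSO of the HCC1806 palbociclib screen, or 73.2%, where 44.7% of all guides did. In DMSO 1 the number was 59, or 41.5%, where 30.4% of all guides did.

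The spread of the guides around their own median was far wider than counting allows. The SD of the change was 0.66 in DMSO and 0.61 with palbociclib in the HCC1806 palbociclib screen, 0.70 in DMSO, 0.91 with INX-315 and 0.65 with palbociclib in MIA PaCa-2, and 0.75, 0.73 and 0.77 in DMSO 2, INX-315 1 and INX-315 2. In DMSO 1 it was 1.51, the widest of the 9. Taking each guide's start count as its expectation, the mean squared deviation per expected count was 79.9 to 132 in 7 libraries, 252 in MIA PaCa-2 with INX-315 and 490 in DMSO 1. Counting error in both libraries alone would give 2.00 to 2.61. Expressed as a single random draw, the excess equals that of a draw which takes a mean of 0.939 copies of each guide in DMSO 1, 3.21 in MIA PaCa-2 with INX-315 and 4.72 to 7.28 in the others. That figure describes the spread and does not count cells, since sampling at several passages, PCR and differences in growth all enter it.

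Non-targeting guides therefore often moved by more than 2-fold. In DMSO of the HCC1806 palbociclib screen, 16 non-targeting guides (11.3%) lay over 1 log2 unit from the non-targeting median, where 26% of all guides lay that far from theirs. The number was 13 (9.15%, all guides 19.2%) with palbociclib in that screen. It was 20 (14.1%, all guides 25.4%) in DMSO 2, 20 (14.1%, all guides 25.7%) in INX-315 1 and 23 (16.2%, all guides 25.4%) in INX-315 2. In the MIA PaCa-2 libraries it was 21 in DMSO (14.8%, all guides 15.2%), 35 with INX-315 (24.6%, all guides 29.8%) and 22 with palbociclib (15.5%, all guides 14.8%). In DMSO 1 it was 80 (56.3%, all guides 58%). In DMSO 1 the non-targeting guides were thus about as scattered as guides that knock genes out. Of olfactory receptor guides 6.62% lay that far from their own median in DMSO of MIA PaCa-2, 21.9% with INX-315 and 6.54% with palbociclib. In the HCC1806 palbociclib screen it was 16.1% in DMSO and 9.15% with palbociclib. The HCC1806 INX-315 screen gave 54.2% in DMSO 1, 15.2% in DMSO 2, and 14.6% and 13.6% in INX-315 1 and 2. The lower start level of the non-targeting guides was not matched in these comparisons. With a pseudocount of 2 CPM in place of 0.5 the numbers fell to 6 to 15 in the 7 libraries other than DMSO 1 and MIA PaCa-2 with INX-315.

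The spread was wider among guides that were rare at the start, most of which were LacZ guides. The guides were split by mean start level into 47 low (1.03 to 7.40 CPM), 48 middle and 47 high guides (13.2 to 34.9 CPM). The SD of the change fell from 0.87 in the low to 0.41 in the high guides in DMSO of the HCC1806 palbociclib screen, and from 0.99 to 0.37 in DMSO of MIA PaCa-2. In DMSO 1 it fell only from 1.49 to 1.19. There 20 of the 47 high guides still lay over 1 log2 unit from the median of all non-targeting guides, against 0 to 6 in the other 8 libraries. The low group of DMSO 1 also had a lower median change, −1.57 against −0.07 in the middle and 0.18 in the high group. Among LacZ guides alone the SD fell from 0.90 in the low to 0.40 in the high group in DMSO of the HCC1806 palbociclib screen and from 1.01 to 0.35 in DMSO of MIA PaCa-2. The other reporters had few guides a group and did not always follow. The SD of EGFP in DMSO 1 was 1.32 in 3 low, 1.37 in 10 middle and 1.67 in 9 high guides, and with palbociclib in HCC1806 it was 0.26, 0.42 and 0.48. For luciferase in MIA PaCa-2 with INX-315 it was 0.57 in 6 middle and 0.71 in 17 high guides.

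The reporters differed in start level and in spread, but the order of the SDs did not follow that of the start levels. LacZ made up 43 of the 47 low guides and 21 of the 47 high ones. In DMSO of the HCC1806 palbociclib screen the SD was 0.72 for LacZ, 0.57 for luciferase and 0.47 for EGFP, and in DMSO of MIA PaCa-2 it was 0.78, 0.52 and 0.46. Luciferase, with the highest start level, was thus wider than EGFP in both. LacZ had the widest SD in every library other than MIA PaCa-2 with palbociclib. There it was 0.65 for LacZ, 0.80 for luciferase and 0.45 for EGFP. LacZ medians differed from those of luciferase and EGFP by at most 0.26 in the 8 libraries other than DMSO 1. In DMSO 1 the LacZ median was −0.86 (−1.29 to −0.33), that of EGFP −0.14 (−1.03 to 1.25) and that of luciferase 0.27 (−0.18 to 0.89). The LacZ and luciferase intervals did not overlap there, and the EGFP interval overlapped both. These intervals run over guides within 1 library and are no test between reporters. Start level was not matched either, with 17 of the luciferase guides in the high group. Between the strands the medians differed by at most 0.21, and the minus strand had the higher one in 7 of 9 libraries. They were 0.37 on the plus and 0.58 on the minus strand in DMSO 2, 0.33 and 0.51 in DMSO of MIA PaCa-2, and −0.38 and −0.39 in DMSO 1. Pairs of guides with overlapping same-strand targets were closer in their change than pairs without overlap in 9 of 9 libraries, a description with no test over pairs that share guides. The median gap was 0.39 against 0.60 log2 units with palbociclib in MIA PaCa-2, 0.48 against 0.67 in DMSO of that line, 0.53 against 0.65 in DMSO of the HCC1806 palbociclib screen and 1.31 against 1.49 in DMSO 1. The 18 pairs with at least 10 shared bases on opposite strands went both ways. Their gap was 0.72 against 0.65 in DMSO of the HCC1806 palbociclib screen and 0.44 against 0.62 with palbociclib there. The 39 pairs that overlapped by under 10 bases were closer in most libraries, at 0.50 against 0.60 with palbociclib in MIA PaCa-2. They were wider in DMSO 1 (1.73 against 1.49) and in DMSO of MIA PaCa-2 (0.70 against 0.67). The groups of pairs were not matched for reporter or start level.

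Single guides showed how large the jumps were. EGFP 447- had 499 counts at the start of the HCC1806 INX-315 screen and 4520 in DMSO 1, a change of 3.23. DMSO 2 held 583 counts of it, and the INX-315 libraries 415 and 549. In the HCC1806 palbociclib screen it went from 648 to 711 in DMSO and 761 with palbociclib, and in MIA PaCa-2 from 905 to 1007 in DMSO, 957 with INX-315 and 555 with palbociclib. The rise of this guide stood in 1 library of 9. That library's lowest guide, LacZ 2348+, fell from 468 counts at the start to 28 in DMSO 1, a change of −3.41. It held 684 in DMSO 2, and 775 and 699 with INX-315. In the HCC1806 palbociclib screen it began at 507 counts and ended at 750 in DMSO and 596 with palbociclib. In MIA PaCa-2 it began at 722 and ended at 719 in DMSO, 1896 with INX-315 and 645 with palbociclib. DMSO 2 and both INX-315 libraries held this guide above its start, and DMSO 1 alone in that screen held it below.

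Other guides jumped together in several libraries of one screen. Luciferase 1385+ rose from 527 counts at the start of the HCC1806 INX-315 screen to 1784 in DMSO 2 and to 2496 and 1807 with INX-315, but held 546 in DMSO 1. It was the highest guide in both INX-315 libraries. In MIA PaCa-2 it went from 1029 to 1100 in DMSO, 630 with INX-315 and 817 with palbociclib, and in the HCC1806 palbociclib screen from 478 to 640 and 681. LacZ 2982- rose from 90 counts to 493 in DMSO and 677 with palbociclib in the HCC1806 palbociclib screen. In the INX-315 screen it went from 66 counts to 0 in DMSO 1, stood at 66 in DMSO 2 and ended at 73 and 86 with INX-315. Its counts in MIA PaCa-2 went from 165 to 95 in DMSO, 295 with INX-315 and 178 with palbociclib. Both rises past 4-fold were in the HCC1806 palbociclib screen. LacZ 2178- went from 564 counts to 1533 in DMSO, 2766 with INX-315 and 1445 with palbociclib in MIA PaCa-2, where it was the highest guide in both drug libraries. In HCC1806 its changes ran from −0.90 to 0.77 log2 units.

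Further extremes began at 19 to 393 counts. LacZ 1588-, the rarest of all at 1.03 CPM, rose from 19 to 201 counts in DMSO of the HCC1806 palbociclib screen. In MIA PaCa-2 the same guide went from 55 counts to 173 in DMSO and 0 with INX-315. The highest guide there in DMSO was LacZ 185+, which rose from 393 to 1787 counts, and the lowest was LacZ 2410+, which fell from 176 to 23. Luciferase 83+ fell from 161 counts to 0 with palbociclib in MIA PaCa-2, which allows up to 3 counts (0.072 CPM), while DMSO held 55 and INX-315 148. LacZ 983+ was the lowest guide in DMSO of the HCC1806 palbociclib screen, where it fell from 306 to 134 counts, and LacZ 2838+ the highest in DMSO 2, where it rose from 222 to 1025. Single non-targeting guides were thus multiplied several-fold in libraries of each screen, and some were no longer detected.

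How close the libraries of one screen were to each other varied. The log2 ratio of INX-315 2 to INX-315 1 had an SD of 0.37 over the non-targeting guides, and those of INX-315 1 and 2 to DMSO 2 were 0.49 and 0.48. The ratios of these 3 libraries to DMSO 1 had SDs of 1.60 to 1.63, no smaller than the SD of 1.51 between DMSO 1 and its start. In MIA PaCa-2 the SD was 0.51 between palbociclib and DMSO, 1.04 between INX-315 and DMSO, and 1.00 between INX-315 and palbociclib. Both ratios with INX-315 were thus wider than the changes from start in this line. The SD was 0.56 between palbociclib and DMSO of the HCC1806 palbociclib screen. Between screens the changes of a guide had little in common. Over the 26 pairs of libraries from different screens, Pearson's r across the non-targeting guides ran from −0.08 to 0.17, a description over guides that share their start level. For olfactory receptor guides it ran from 0.04 to 0.25.

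Departures from the median in the same direction in several screens were found more often below it than above it. A guide counted in a screen if at least 1 of its libraries after the start passed, whatever the others did. LacZ 2410+ thus counted as below in the HCC1806 INX-315 screen through DMSO 1 alone, at −2.24 log2 units from its start. Its changes in DMSO 2, INX-315 1 and INX-315 2 were 1.00, 1.65 and 2.05. Above the median by over 1 log2 unit, 64 guides were found in 1 screen, 7 in 2 screens (4.93%, where 11.5% of all guides lay that far above theirs in 2 or more screens, and 6.54% of olfactory receptor guides) and 0 in all 3. Below it, 45 were found in 1 screen, 23 in 2 and 5 in all 3, or 19.7% in 2 or more, where 23.5% of all guides and 16.4% of olfactory receptor guides were. Without DMSO 1 the guides in 2 or more screens were 3 above (2.11%, all guides 6.23%, olfactory receptor guides 2.62%) and 15 below (10.6%, all guides 18.8%, olfactory receptor guides 10.1%). At a distance of 1.5 log2 units 0 guides lay above the median in 2 screens, and 10 lay below it (7.04%, all guides 13.8%, olfactory receptor guides 5.08%), all of them LacZ guides. Without DMSO 1, 6 of these 10 met the same rule, LacZ 154+, 1607+, 2253-, 2506+, 2545- and 2929+ (4.23% of the non-targeting guides, all guides 11.5%, olfactory receptor guides 2.85%). LacZ is also the reporter with the lowest start levels. LacZ 2506+ went from 46 counts to 18 in DMSO and 23 with palbociclib in the HCC1806 palbociclib screen. In the other HCC1806 screen it began at 30 counts and ended at 9 and 1 in DMSO and at 0 in both INX-315 libraries. In MIA PaCa-2 it went from 109 to 119 in DMSO, 3 with INX-315 and 31 with palbociclib. LacZ 2253- went from 42 counts to 23 in DMSO and 18 with palbociclib in the HCC1806 palbociclib screen. It began at 31 in the INX-315 screen and ended at 0 and 8 in DMSO and at 0 and 1 with INX-315. From 107 counts in MIA PaCa-2 it went to 103 in DMSO, 0 with INX-315 and 89 with palbociclib. Both kept their level in DMSO of MIA PaCa-2 and were at 3 counts or fewer with INX-315 in that line. LacZ 2929+ fell from 79 counts to 6 and 2 in DMSO and to 3 and 15 with INX-315 in HCC1806, but rose from 150 to 317 in DMSO of MIA PaCa-2. In that line its change was −1.52 log2 units with INX-315 and 0.90 with palbociclib.

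The steadiest guides were LacZ 1324-, EGFP 249+ and EGFP 75+, which stayed within 0.41, 0.50 and 0.58 log2 units of the median in all 9 libraries. LacZ 1324- began at 403 counts in the HCC1806 palbociclib screen and ended at 541 in DMSO and 644 with palbociclib. It began at 438 in the INX-315 screen and ended at 374 and 701 in DMSO and at 622 and 631 with INX-315. Its counts in MIA PaCa-2 began at 858 and ended at 1221 in DMSO, 1069 with INX-315 and 597 with palbociclib. Their start levels of 13.9 to 22.3 CPM were all in the high group. Without DMSO 1 the steadiest were LacZ 1324-, luciferase 1516- and LacZ 2980-, within 0.41, 0.44 and 0.47 log2 units. In all, 31 guides (21.8%, all guides 15.8%) stayed within 1 log2 unit of the median in all 9 libraries, and 64 (45.1%, all guides 33.3%) did so in the 8 libraries other than DMSO 1. Above their start in all 9 libraries were 16 guides (11.3%, all guides 1.58%, olfactory receptor guides 3.31%), and without DMSO 1 there were 25 (17.6%, all guides 3.97%, olfactory receptor guides 7.46%). None lay below its start in all 9 libraries (0 guides, all guides 11.7%) or in all 8 without DMSO 1 (0 guides, all guides 13.2%).

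The test across all guides called no guide of any kind as changed from the start, so its 0 calls do not set the non-targeting guides apart. edgeR's quasi-likelihood test compared the 4 DMSO libraries with the 3 start libraries with the screen as a covariate, and 0 of the non-targeting guides, all of which passed the filter on low counts, passed an adjusted p of 0.05, where 0% of all 70695 guides did. At an unadjusted p under 0.05 there were 4 (2.82%), all higher, where 7.12% of all guides passed that mark in either direction. Without DMSO 1 there were still 0 calls (all guides 0.613%). But 32 non-targeting guides (22.5%), all higher, had an unadjusted p under 0.05, where 15.1% of all guides did in either direction. The lowest p belonged to LacZ 23-, with a log2 fold change of 1.70 ± 0.58 (SE) and an adjusted p of 0.465 from edgeR. This guide went from 309 counts to 912 in DMSO of the HCC1806 palbociclib screen, from 254 to 1172 and 550 in DMSO 1 and DMSO 2, and from 430 to 868 in DMSO of MIA PaCa-2, and was thus higher in 4 of 4 DMSO libraries. LacZ 185+ (1.32 ± 0.51, adjusted p = 0.579) and LacZ 412- (1.09 ± 0.44, adjusted p = 0.622) came next in the same edgeR fit. DESeq2 called 0 of them as well, where it called 5.17% of all guides, nearly all lower. The median log2 fold change of the non-targeting guides in the edgeR fit was 0.58, against 0.19 for olfactory receptor guides and 0.02 for all guides.

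INX-315 was compared with DMSO in HCC1806, the only comparison with replicates. The median log2 ratio of the non-targeting guides, taken between the means of each arm, was 0.45 (95% binomial interval 0.30 to 0.59) with an SD of 0.85. Much of this shift was shared by the library, with medians of 0.30 for all targeting and 0.33 for olfactory receptor guides. On the TMM scale of edgeR the non-targeting median was 0.10, against −0.03 for all guides. The median log2 ratio was 0.84 between INX-315 1 and DMSO 1 and 0.04 between INX-315 2 and DMSO 2, where all targeting guides gave 0.59 and 0.01. DMSO 2 against DMSO 1 gave 0.81, as large a shift without any drug, and INX-315 2 against INX-315 1 gave −0.02. In the ratio of the arm means 35 guides (24.6%) lay over 1 log2 unit from no change, where 30.1% of all guides lay that far. Of these, 32 were higher, or 22.5%, where 22.9% of all guides were. Between INX-315 2 and DMSO 2 there were 8 (5.63%, all guides 7.69%), and between the 2 DMSO libraries 83 (58.5%, all guides 56.8%). EGFP 447- had the lowest ratio of INX-315 to DMSO over the arm means, −1.56, made up of −3.22 in the first pair and 0.11 in the second.

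The other drug comparisons moved the non-targeting median little. It was 0.02 (−0.09 to 0.08) for palbociclib in HCC1806. In MIA PaCa-2 INX-315 gave 0.05 (−0.24 to 0.23) and palbociclib −0.03 (−0.08 to 0.04). The spread differed more than the median. In HCC1806 with palbociclib 9 guides (6.34%) lay over 1 log2 unit from no change, where 12.7% of all guides did, and in MIA PaCa-2 with palbociclib 13 (9.15%) did, where 5.32% of all guides did. In MIA PaCa-2 with INX-315 the number was 46 (32.4%), where 30.2% of all guides lay that far. Of olfactory receptor guides 10.2% did with palbociclib in HCC1806, and in MIA PaCa-2 2.38% with palbociclib and 23.8% with INX-315. The levels of the guides were not matched in these comparisons.

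Of the non-targeting guides edgeR called none between INX-315 and DMSO in HCC1806, where it called no guide at all, and DESeq2 called 1. Of 139 that passed the filter on low counts, 0 passed an adjusted p of 0.05 in edgeR's quasi-likelihood test, where 0% of all 68405 guides did, and 0 had an unadjusted p under 0.05, where 2.33% of all guides did. LacZ 1537- had the lowest p, with 781 and 901 counts in DMSO and 477 and 450 with INX-315 (423 at the start), a log2 fold change of −0.995 ± 0.461 (SE) and an adjusted p of 0.837 from edgeR. EGFP 141- followed with 922 and 939 counts in DMSO and 531 and 454 with INX-315 (404 at the start, log2 fold change −1.07 ± 0.50). Luciferase 83+ came next with 22 and 61 counts in DMSO and 102 and 179 with INX-315 (72 at the start, log2 fold change 1.74 ± 0.82). Both had the same adjusted p in that fit. DESeq2 called 1 of the 139 (0.719%, all guides 0.538%), EGFP 447-, with an adjusted p of 0.0497 from DESeq2, the guide whose 4520 counts stood in DMSO 1 alone.

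The calls depended on which DMSO library was used. Without DMSO 1, edgeR called 8 of 139 non-targeting guides (5.76%, all guides 9.36%). The lowest p among these was that of LacZ 2838+ (adjusted p = 0.000147 from edgeR), whose counts were 1025 in DMSO 2 against 461 and 410 in INX-315. Without DMSO 2, it called 102 of 139 (73.4%, all guides 71.4%). In each of these fits 1 library stood for DMSO and was assumed to vary like the INX-315 pair. Non-targeting guides were thus called at nearly the rate of all guides when DMSO 1 alone was the control, and at a lower rate when DMSO 2 was.

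The spread was also compared between the arms. The SD of the change from start was 1.51 and 0.75 in the DMSO libraries and 0.73 and 0.77 in the INX-315 libraries, a mean of 1.13 against 0.748. The difference of 0.38 was smaller than the gap of 0.76 between the DMSO libraries. An exact permutation test over 2 against 2 libraries (2-sided) gave p = 0.667, but with a smallest possible p of 0.33 it could not have passed 0.05 and does not bear on whether the arms differ. Without DMSO 1 the difference was 0.0016 log2 units.

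DrugZ, which the study used to rank genes, scales the log2 ratio of drug to DMSO of a guide by how widely guides of like abundance scatter (the guide Z), and adds these up over all guides that carry one name into a normZ. The reporters enter it as 3 names with 96, 24 and 22 guides, far more than a gene has, so their scores are not comparable with those of genes. With INX-315 in HCC1806, LacZ scored 3.80. Luciferase scored 0.60 and EGFP 0.15. The LacZ score came from the first pair of libraries. From INX-315 1 against DMSO 1 alone it was 4.73, and from INX-315 2 against DMSO 2 alone 0.33. Restricted to guides with at least 30 counts in DMSO it was 1.86. The mean guide Z of LacZ in the first pair was 0.79, against 0.43 for all targeting guides, and in the second 0.03 against −0.01.

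In the other comparisons the scores ran from −1.81 to 0.99. LacZ scored −1.81 with palbociclib in HCC1806, and in MIA PaCa-2 it scored −1.21 with INX-315 and −0.86 with palbociclib. Luciferase scored 0.99, 0.60 and −0.11 in the same order, and EGFP −0.67, 0.67 and −1.38. Of single non-targeting guides, 16.2% had a Z over 2 in size in the first INX-315 pair of HCC1806, where 19.4% of all guides did, and 0.704% did in the second pair, where 2.65% of all guides did. The shares were 3.52% (all guides 5.94%) with palbociclib in HCC1806, and in MIA PaCa-2 4.23% (5.15%) with INX-315 and 4.23% (4.67%) with palbociclib. In the HCC1806 comparisons the non-targeting guides lay below the share of all guides, and in MIA PaCa-2 close to it.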

How the data were processed

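Counts of guides in 12 libraries were analysed. The authors amplified guides from genomic DNA by PCR, removed adapters with Trim Galore (0.6.7) and made the deposited counts with MAGeCK (5.9, per the submitters' processing notes). The signal values in the deposited normalized tables are the same counts times 1 factor per library and were used as an alternative. The name of a guide gave its target. The members, the comparison lists and the tests were chosen with earlier results of these data known. Named guides were the highest and lowest in each library after the start, those over 1.5 log2 units from the median of all non-targeting guides in the same direction in 2 or more of 3 screens, the 3 steadiest, and those called (at most 5) or with the 3 lowest p-values in an edgeR fit. The guides called in a fit that left out DMSO 1 or by DESeq2 were named after their values were seen.

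Changes used log2(CPM + 0.5), with CPM on total counts. Guides were tested with the quasi-likelihood test of edgeR 4.0.16 on TMM-scaled counts, with limma 3.58.1 under R 4.3.3, for guides with at least 10 counts in 2 libraries, adjusted over all guides (Benjamini-Hochberg), and with DESeq2 1.42.0. DrugZ was rewritten in Python 3.11.15, using scipy 1.17.1, pandas 2.3.3 and numpy 2.4.6, with a pseudocount of 5, totals scaled to 10000000 and a window of 1000 guides. These scripts were tested on simulated data. The study calls the 2 HCC1806 INX-315 replicates biological, and no source describes how they were kept apart, so p-values measure the spread between these libraries, which may be technical. The alternatives were other pseudocounts, scalings and filters, the normalized tables, and each library or screen left out. Correlations are across guides, which are not independent replicates.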

Additional observations from a re-analysis of the deposited data

Results flagged for a closer look

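Between the lines, 3 values of the same drug contrast had opposite signs in every comparison of libraries, and the difference was not tested in any of them. The normZ of LacZ under INX-315 was 3.80 in HCC1806 (4.73 and 0.33 in its pairs of libraries) and −1.21 in MIA PaCa-2, a difference of 5.01. The normZ of luciferase under palbociclib was 0.99 in HCC1806 and −0.11 in MIA PaCa-2, a difference of 1.09. With a DrugZ pseudocount of 20 the MIA PaCa-2 score was 0.010, so its sign depended on that setting. The median log2 ratio of palbociclib to DMSO of the non-targeting guides was 0.02 in HCC1806 and −0.03 in MIA PaCa-2, a difference of 0.042, and both intervals of the median held 0. No group had the 4 libraries that a check for an outlying library needs.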

How the results depend on the processing

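Of 229 recalculations of the main values, 193 kept their direction and side of the threshold, or stayed within the spread between replicates or the interval of the value. Some of the 193 could not have moved. The normalized tables give the same CPM as the raw counts. Scaling on other guides shifts all guides of a library alike, which leaves the SD of a change or ratio as it was. The median change from start in DMSO 1 turned from −0.38 to 0.49 with scaling on all guides and to 0.17 with scaling on olfactory receptor guides. Scaling on all guides also moved the median to 0.48 in DMSO of the HCC1806 palbociclib screen and to 0.59 and 0.61 in INX-315 1 and 2. Scaling on olfactory receptor guides moved it to 0.26 and 0.28 in DMSO and palbociclib of the HCC1806 palbociclib screen and to 0.38 in both INX-315 libraries of HCC1806. A pseudocount of 2 CPM gave medians of 0.42 and 0.44 in INX-315 1 and 2, and one of 0.1 CPM gave 0.53 in INX-315 2. The SD of the change narrowed with a pseudocount of 2 CPM, to 0.55 and 0.51 in DMSO and palbociclib of the HCC1806 palbociclib screen, 0.59 and 0.62 in INX-315 1 and 2, and 0.55, 0.73 and 0.52 in DMSO, INX-315 and palbociclib of MIA PaCa-2. It widened with 0.1 CPM, to 0.90 in INX-315 1, 0.90 in INX-315 2, and 1.08 and 0.78 in INX-315 and palbociclib of MIA PaCa-2. The SD of the log2 ratio to DMSO was 0.47 for palbociclib in HCC1806 with 2 CPM, 0.82 and 1.23 for INX-315 in MIA PaCa-2 with 2 and 0.1 CPM, and 0.40 and 0.62 for palbociclib there. Without DMSO 1 the median ratio of INX-315 to DMSO in HCC1806 was 0.06 and its SD 0.45, and without DMSO 2 they were 0.83 and 1.60.

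Calls of INX-315 against DMSO numbered 1 with DESeq2 and ran from 0 to 102 with 1 library left out, without the DMSO libraries 8 and 102. For DMSO against start, adding the drug libraries gave 2 calls, LacZ 412- and luciferase 1043+, both higher (1.41% of the non-targeting guides). Of all guides 4.56% were called, 0.042% as higher and 4.51% as lower. Leaving out DMSO 1 gave 0 calls. At an unadjusted p under 0.05 it gave 32 non-targeting guides (22.5%, all guides 15.1%) in place of 4 (2.82%, all guides 7.12%). These shares of all guides count both directions. The normZ of LacZ under INX-315 in HCC1806 was 1.86 with at least 30 DMSO counts and ran from 0.33 to 4.73 with 1 pair of libraries left out. That of EGFP ran from −0.060 without the first pair to 0.24 without the second, and that of luciferase under palbociclib in MIA PaCa-2 turned from −0.11 to 0.010 with a pseudocount of 20. Libraries with the same replicate number did not deviate together (correlation −0.007 across the guides). With the replicate number as a block edgeR called 0 non-targeting guides (all guides 0.016%). The spread again differed by 0.38, which could not change, since the mean over pairs equals the difference of the arm means. The spread difference ran from 0.0016 to 0.76 with 1 library left out, which was chosen after seeing the data, as were the repeat of the 1.5 log2 unit rule without DMSO 1 (6 guides in place of 10), the counts at 1 log2 unit and against the start without DMSO 1, and the share of counts without the largest non-targeting guide of each library, 0.146 to 0.153% at the start and 0.205 to 0.238% after it. With 1 to 2 libraries a group and guides of few counts, differences of the non-targeting guides smaller than these spreads could not be shown at this depth. The causes were not tested.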
